A study of Homo sapiens with 8 samples.

Results

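Selectin ligands carry leukocytes along the vessel wall, and the RNA of 8 genes that encode or build them was followed in NB4 cells, an acute promyelocytic leukemia (APL) line with the PML/RARα fusion. The genes were taken by their symbols: SELPLG and CD44, which encode protein scaffolds of selectin ligands, the fucosyltransferase genes FUT4 and FUT7, the sialyltransferase genes ST3GAL4 and ST3GAL6, the branching enzyme gene GCNT1 and the galactosyltransferase gene B4GALT1. All 8 were among the 37526 gene names listed for every library, and all 8 passed the low-count filter in every comparison. Upon ATRA treatment, FUT7 RNA was 3.58-fold lower and FUT4 RNA 1.87-fold higher in KDM3B-knockdown cells than in control cells. Without ATRA, CD44 RNA was 2.93-fold lower in the knockdown cells, a log2 fold change of -1.55 that ran from -2.38 to -0.92 with 1 library left out. These 3 differences passed the study's thresholds but not an adjustment over all genes in the pairwise edgeR fits with a low-count filter and no replicate block. With the filter dropped or the block added, CD44 alone of the 3 passed that adjustment. ATRA was accompanied by higher SELPLG and B4GALT1 and by lower FUT7, ST3GAL4 and ST3GAL6 in both kinds of cells.

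The cells carried a lentiviral control construct, named an empty vector in the sample labels and a scrambled shRNA in the study (scramble), or an shRNA against the histone demethylase KDM3B (shKDM3B). Each was sequenced without ATRA and with ATRA (scramble+ATRA and shKDM3B+ATRA), in 2 replicates per condition and 8 libraries in all. The labels give the dose as 1 μM, where the study's methods give another unit, and name 24 or 48 h of ATRA without saying which applies to these libraries. The constructs were carried by puromycin-selected cells of a single line, and the sources used here do not state which KDM3B shRNA was sequenced or whether the replicates were separate cultures, so p-values measure the spread between these libraries only.

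Selectins are lectins of endothelium, platelets and leukocytes that slow flowing white cells into rolling. They recognise sialyl Lewis x, a small sugar cap. B4GALT1 adds galactose to build the lactosamine core of that cap, ST3GAL4 and ST3GAL6 add the terminal sialic acid, and FUT7 adds the fucose that completes it. FUT4 encodes a related fucosyltransferase best known for the unsialylated Lewis x antigen, the myeloid marker CD15. GCNT1 starts the core 2 branch of O-glycans on which the cap sits in PSGL-1, the product of SELPLG and the main P-selectin ligand of leukocytes. CD44 is a hyaluronan receptor, of which suitably glycosylated forms bind E-selectin. Promyelocytes are granulocyte precursors, and retinoic acid drives APL cells toward mature granulocytes.

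Of the 8 genes, 7 had an entry among the RefSeq promoters (GRCh38.p14), all but SELPLG. The 250 bases before the start are shown for the 3 genes that were called in a comparison of shKDM3B with control cells, each of which has 1 annotated start in that table. For CD44 that start lies downstream of the gene start in GENCODE, from which the gene positions below are taken, so that its window overlaps the GENCODE gene. They were searched on both strands for AGGTCA, the half-site of nuclear receptors, for GAGGAA, a core of PU.1 sites, and for TGACTCA, an AP-1 site. Matches are in capitals, reading 5′ to 3′ along the gene.
FUT7, chr9:137032089-137032338, minus strand: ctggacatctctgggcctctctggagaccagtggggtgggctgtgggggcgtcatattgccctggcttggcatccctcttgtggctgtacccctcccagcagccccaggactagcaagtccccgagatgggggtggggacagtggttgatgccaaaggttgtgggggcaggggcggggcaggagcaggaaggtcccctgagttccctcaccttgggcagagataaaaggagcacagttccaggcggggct
CD44, chr11:35138921-35139170, plus strand: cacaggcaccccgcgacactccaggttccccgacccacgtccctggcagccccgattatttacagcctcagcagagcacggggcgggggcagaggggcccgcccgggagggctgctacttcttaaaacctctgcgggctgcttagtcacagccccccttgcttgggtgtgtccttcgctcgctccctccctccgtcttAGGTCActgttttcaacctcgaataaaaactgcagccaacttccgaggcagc
FUT4, chr11:94543671-94543920, plus strand: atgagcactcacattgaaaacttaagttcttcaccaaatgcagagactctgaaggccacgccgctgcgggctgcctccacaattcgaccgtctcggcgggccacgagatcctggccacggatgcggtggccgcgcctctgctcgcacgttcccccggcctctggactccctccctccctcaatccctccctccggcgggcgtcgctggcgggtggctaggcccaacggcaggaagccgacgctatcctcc
CD44 held 1 AGGTCA, which begins 52 bases before the start, and the windows of FUT7 and FUT4 held none of these letters. Of 35116 promoter windows of the same length, 12.1% held AGGTCA, 23.6% GAGGAA and 4.20% TGACTCA. A match describes the letters alone, and no binding data were analysed here.

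The authors deposited whole-number counts of read pairs per gene. Between 19444480 and 33017787 pairs were counted on genes in the untreated libraries and between 9708739 and 16882512 in the ATRA-treated ones. From 8.49% to 9.62% of uniquely aligned pairs fell outside genes in the 4 untreated libraries. Among the treated libraries this share was 9.36% in replicate 1 and 50.0% in replicate 2 of scramble+ATRA, and 51.4% and 51.0% in those of shKDM3B+ATRA. The untreated and ATRA-treated files list different gene names, 56470 and 56609, so that a difference of annotation cannot be told apart from ATRA. The counts of the 2 replicates differed by more than sampling noise in each condition, with a chi-square per degree of freedom over genes of 34.6 in scramble, 36.1 in shKDM3B, 81.5 in scramble+ATRA and 6.11 in shKDM3B+ATRA. The part of the share outside genes in the results was not tested, and the members' differences from scramble+ATRA are given below with and without each of its libraries. In shKDM3B cells both treated libraries and neither untreated one had the high share. For every gene below, it cannot be told apart from ATRA in that comparison.

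KDM3B, the target, had levels of 187 and 188 CPM (counts relative to library size, with TMM scaling over all 8 libraries) in scramble cells and of 76.3 and 86.2 CPM in shKDM3B cells. Its levels with ATRA were 196 and 121 CPM in scramble and 52.5 and 57.4 CPM in shKDM3B cells. The log2 fold change was -1.21 (SE 0.15, adjusted p = 0.068, edgeR quasi-likelihood test) without ATRA and -1.53 (SE 0.29, adjusted p = 0.502, the same test) with it. The second value ran from -1.84 to -1.13 with 1 library left out and was called in 2 of these 4 fits, those without a scramble+ATRA library. MPO, the granule peroxidase of promyelocytes, was at 4284 and 5343 CPM in scramble, 8339 and 9518 in shKDM3B, 730 and 616 in scramble+ATRA and 3128 and 2220 in shKDM3B+ATRA. It made up most of the sum of 6 promyelocyte markers, of which ELANE, AZU1 and PRTN3 stayed at or under 1.47 CPM in every library. CTSG was at 105 to 149 CPM in the untreated and 1.71 to 4.11 in the treated libraries, and CD33 at 63.0 to 77.5 and 88.0 to 110. ITGAM, the myeloid differentiation antigen CD11b, was at 20.5 and 26.1 CPM in scramble, 9.86 and 14.9 in shKDM3B, 217 and 154 in scramble+ATRA and 104 and 106 in shKDM3B+ATRA. Of 11 markers of other cell types, MS4A1, HBB and PF4 were at 0 in all libraries and their summed level was between 19.8 and 30.1 CPM in all libraries, with EPCAM at 13.1 to 18.9 CPM. The sum of 6 differentiation markers was 147 to 148 CPM in scramble, 153 to 184 in shKDM3B, 732 to 794 in scramble+ATRA and 603 to 751 in shKDM3B+ATRA, and that of the promyelocyte markers 4452 to 5534, 8554 to 9723, 707 to 844 and 2323 to 3224 CPM. The summed promyelocyte and differentiation markers moved with ATRA, and MPO and ITGAM also differed with the knockdown. Not all markers did so alike, since CD38 of the differentiation list was at 116 and 108 CPM in scramble and at 136 and 158 in shKDM3B cells. ITGA2B, a megakaryocyte marker, was at 7.78 and 7.59 CPM in scramble, 1.75 and 3.56 in shKDM3B, 4.72 and 4.52 in scramble+ATRA and 1.69 and 2.71 in shKDM3B+ATRA. The part of these markers in the results was not tested.

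Levels can be compared between genes only per length. Per kilobase of annotated exon (GENCODE v44), FUT4 was the highest of the 8 in scramble cells with a mean of 17.6 CPM per kb, followed by B4GALT1 at 14.7, ST3GAL4 at 14.1 and SELPLG at 13.0. FUT7 was at 7.73 and ST3GAL6 at 6.25 CPM per kb. The lowest were CD44 at 2.13 and GCNT1 at 1.68 CPM per kb. With ATRA, FUT7 moved to 3.13 CPM per kb in scramble and to 0.87 in shKDM3B cells.

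**Figure D1:**
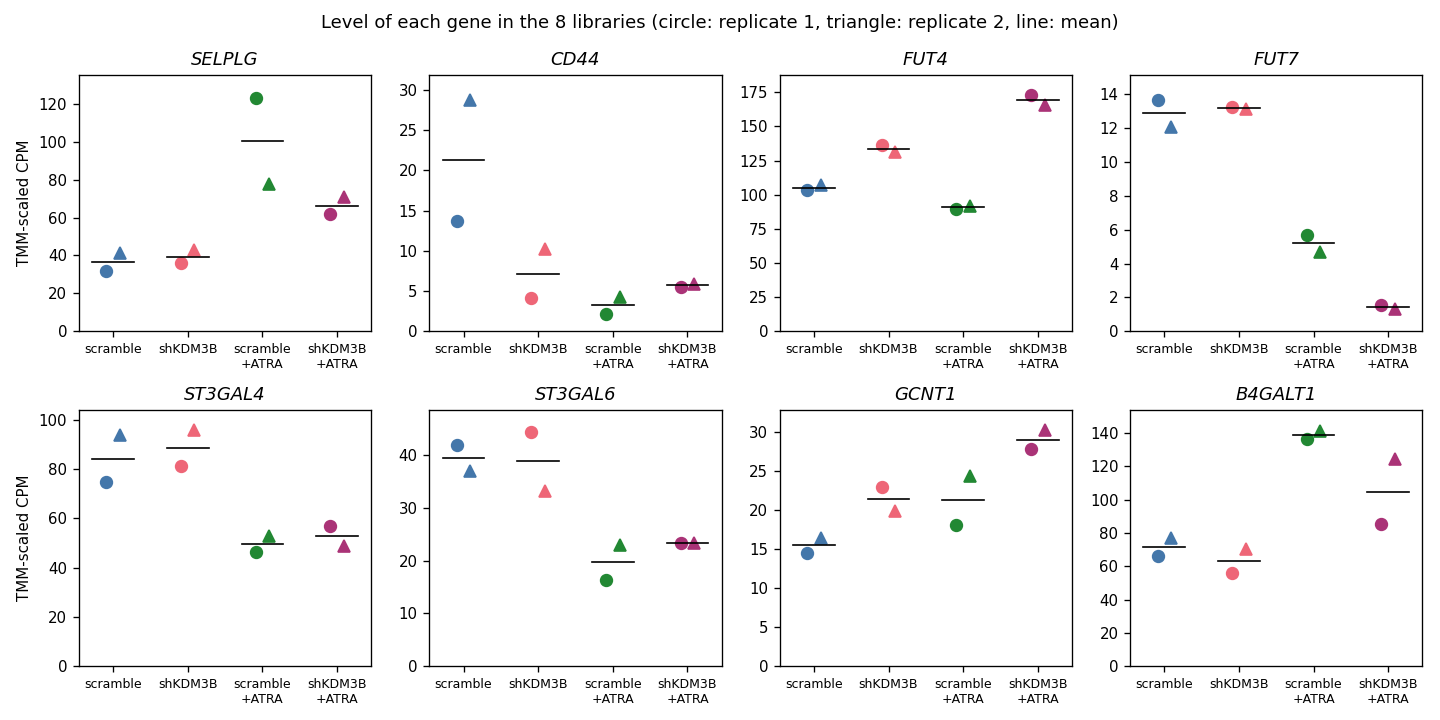
Level of each gene in CPM (TMM scaling, linear axes from 0, a scale of its own for each gene) in the 4 conditions. Circles are replicate 1, triangles replicate 2 and lines the mean of the pair. FUT7 lies between 12.0 and 13.7 CPM in all untreated libraries and at 1.58 and 1.31 in shKDM3B+ATRA, while FUT4 is at its highest there, at 173 and 166.

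SELPLG (ENSG00000110876, hg38 chromosome 12, 108621895 to 108633894, minus strand), the gene of PSGL-1, was at 32.1 and 41.1 CPM in scramble and at 35.8 and 43.1 in shKDM3B cells. In the treated cells it was at 123 and 77.7 CPM in scramble and at 61.7 and 70.7 in shKDM3B cells. Both treated groups lay above both untreated groups, and the untreated groups overlapped. Genes with an unadjusted p under 0.05 and a difference of 1.5-fold or more are termed called, after the thresholds of the study, and every adjusted p is a Benjamini-Hochberg value over all genes of an edgeR quasi-likelihood fit unless DESeq2 is named. SELPLG rose with ATRA, by a log2 fold change of 1.49 in scramble (SE 0.28, adjusted p = 0.0146) and of 0.80 in shKDM3B cells (SE 0.16, adjusted p = 0.00226). The scramble value was 1.12 without scramble+ATRA replicate 1 and 1.76 without replicate 2.

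Between shKDM3B+ATRA and scramble+ATRA, the log2 difference of SELPLG was -0.60 (SE 0.28, adjusted p = 0.562) and was not called, although the groups did not overlap. It was called at -0.89 without scramble+ATRA replicate 2 and was -0.22 and not called without replicate 1. The response to ATRA differed by -0.71 between shKDM3B and scramble cells (SE 0.35, unadjusted p = 0.0812, adjusted p = 1.00), which was not called. Without scramble+ATRA replicate 2 that difference was called at -1.01. In bulk RNA, fewer cells with a transcript and less transcript per cell cannot be told apart, here and for all genes that follow.

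CD44 (ENSG00000026508, chromosome 11, 35138882 to 35232402, plus strand) was at 13.8 and 28.7 CPM in scramble and at 4.11 and 10.2 in shKDM3B cells. The groups did not overlap, and the replicates of each differed by more than those of FUT4 or FUT7. The log2 fold change was -1.55 (SE 0.46, adjusted p = 0.265, with DESeq2 adjusted p = 0.00925). CD44 was called with any one library left out, at -0.92 without scramble replicate 2, -1.06 without shKDM3B replicate 1, -1.98 without scramble replicate 1 and -2.38 without shKDM3B replicate 2. MPO and CD38 were higher and ITGAM and ITGA2B lower in the same shKDM3B libraries, and their part was not tested.

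With ATRA, CD44 was at 2.21 and 4.33 CPM in scramble and at 5.48 and 5.93 CPM in shKDM3B cells, resting on 36 to 59 counts per library. The order of the groups was thus reversed from that without ATRA. The log2 difference of 0.81 between the treated groups (SE 0.46, adjusted p = 0.613) was not called. It was called at 1.37 without scramble+ATRA replicate 2, and was 0.41 and not called without replicate 1. In scramble cells CD44 was called lower with ATRA, by -2.68 (SE 0.50, adjusted p = 0.0141), with a range from -3.26 to -2.05 over the libraries left out in turn, and with -2.26 without scramble+ATRA replicate 1. In shKDM3B cells the treated and untreated values overlapped, and the difference was -0.29 (SE 0.40, adjusted p = 0.572). That value was -0.83 and called without shKDM3B replicate 1, and 0.53 and not called without shKDM3B replicate 2. The difference between the responses was 2.38 (SE 0.79, unadjusted p = 0.0191, adjusted p = 1.00) and was called. It was not called without shKDM3B replicate 1, where it was 1.88, without shKDM3B+ATRA replicate 2, where it was 2.32, or without scramble replicate 2, where it was 1.75.

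FUT7 (ENSG00000180549, chromosome 9, 137030174 to 137032088, minus strand) was at 13.7 and 12.0 CPM in scramble and at 13.2 and 13.1 in shKDM3B cells, a log2 difference of 0.035 (SE 0.21, adjusted p = 0.978). ATRA-treated scramble cells had 5.70 and 4.70 CPM, from 93 and 51 counts, and treated shKDM3B cells 1.58 and 1.31 CPM, from 15 and 13 counts. All treated libraries lay below all untreated ones, and the shKDM3B+ATRA libraries lay below the scramble+ATRA libraries.

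In the treated cells the log2 difference of FUT7 between shKDM3B and scramble was -1.84 (SE 0.36, adjusted p = 0.502) and was called. It was -1.69 without scramble+ATRA replicate 1, when the 3 remaining libraries had like shares of pairs outside genes, and -1.98 without replicate 2, both called. Without shKDM3B+ATRA replicate 1 it was -1.98 and without replicate 2 it was -1.71, neither of them called. FUT7 fell with ATRA by 1.27 on the log2 scale in scramble cells (SE 0.32, adjusted p = 0.043), a call that was lost without scramble replicate 1, at -1.20. Without scramble+ATRA replicate 1 and 2 that change was -1.41 and -1.16. In shKDM3B cells it fell by 3.13 (SE 0.28, adjusted p = 1.9e-05), where ATRA and the share outside genes cannot be told apart. The 2 responses differed by -1.88 (SE 0.36, unadjusted p = 0.00113, adjusted p = 0.965), which was called, and which stayed called with any one of the 8 libraries left out, from -2.02 to -1.73. In the GENCODE annotation, 34.2% of its exon bases are shared with ENSG00000279073 on the same strand and 5.48% lie opposite LINC02908. Pairs that fall on more than 1 gene can be set aside as ambiguous and counted for neither.

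FUT4 (ENSG00000196371, chromosome 11, 94543921 to 94549895, plus strand) was at 104 and 107 CPM in scramble and at 136 and 131 in shKDM3B cells. Under ATRA its level was 89.9 and 91.5 CPM in scramble and 173 and 166 in shKDM3B cells. No 2 conditions overlapped, with scramble+ATRA lowest, then scramble, shKDM3B and shKDM3B+ATRA. The log2 fold change in the treated cells was 0.90 (SE 0.11, adjusted p = 0.502, with DESeq2 adjusted p = 1.4e-10), and FUT4 was called with any one library left out, from 0.88 to 0.94. Without ATRA it was 0.34 (SE 0.14, unadjusted p = 0.0405, adjusted p = 0.456), under the fold limit. ATRA was accompanied by a log2 difference of -0.18 in scramble (SE 0.19, adjusted p = 0.597) and of 0.39 in shKDM3B cells (SE 0.12, adjusted p = 0.0201), neither of them called. The scramble value was -0.17 and -0.22 without scramble+ATRA replicate 1 and 2. The responses differed by 0.56 (SE 0.17, unadjusted p = 0.0128, adjusted p = 1.00), just under the 1.5-fold limit. That difference passed the limit at 0.63 with library size alone as the scaling and at 0.59 without shKDM3B replicate 1 or without shKDM3B+ATRA replicate 2. The exons of PIWIL4-AS1 lie opposite 10.9% of the exon bases of FUT4, and those of PIWIL4 share 10.1% on its own strand.

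The ratio of FUT4 to FUT7 counts within a library needs no scaling between libraries. It was 7.59 and 8.87 in scramble, 10.3 and 9.98 in shKDM3B, 15.8 and 19.5 in scramble+ATRA and 109 and 127 in shKDM3B+ATRA. The groups did not overlap, and shKDM3B+ATRA stood apart from the rest, with 15 and 13 FUT7 counts. The ratio pairs the 2 genes called in opposite directions between the treated groups, so that it restates those calls. SELPLG counts per CD44 count were 2.33 and 1.43 in scramble, 8.71 and 4.23 in shKDM3B, 55.8 and 17.9 in scramble+ATRA and 11.3 and 11.9 in shKDM3B+ATRA. They were highest in scramble+ATRA, where the replicates also lay farthest apart. The gene lengths are in these ratios, so that they compare libraries and not the levels of the genes.

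**Figure D2:**
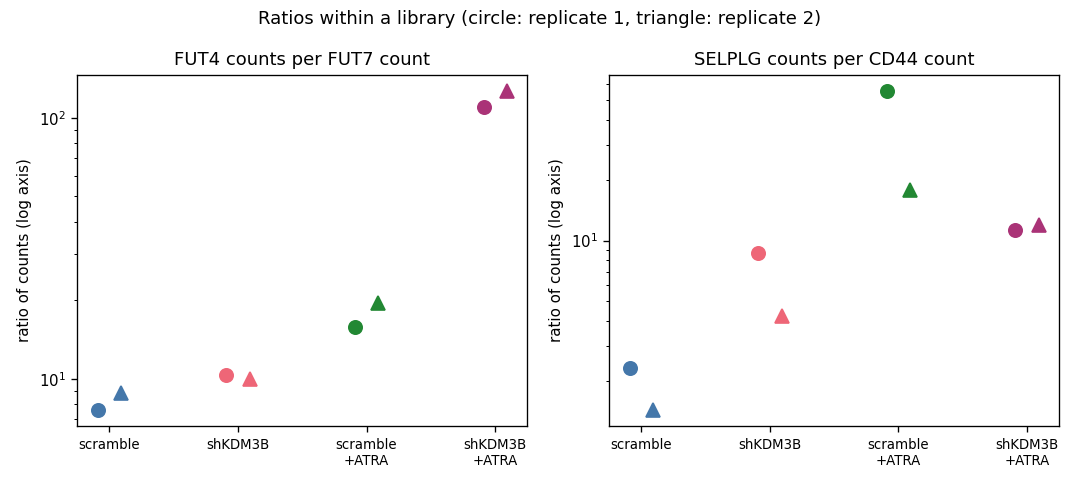
Ratios of raw counts within each library on log axes, FUT4 per FUT7 on the left and SELPLG per CD44 on the right, with circles for replicate 1 and triangles for replicate 2. FUT4 per FUT7 is 109 and 127 in shKDM3B+ATRA and at most 19.5 in the other libraries, and SELPLG per CD44 is highest in scramble+ATRA at 55.8 and 17.9.

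ST3GAL4 (ENSG00000110080, chromosome 11, 126355640 to 126440344, plus strand) was at 74.7 and 93.7 CPM in scramble and at 81.3 and 95.8 in shKDM3B cells. With ATRA it was at 46.5 and 52.9 CPM in scramble and at 57.1 and 48.6 in shKDM3B cells. Treated libraries lay below untreated ones, whereas scramble and shKDM3B overlapped with and without ATRA. The log2 change with ATRA was -0.72 in scramble (SE 0.23, adjusted p = 0.0847) and -0.69 in shKDM3B cells (SE 0.15, adjusted p = 0.00395), both called. Without scramble+ATRA replicate 1 and 2 the scramble value was -0.63 and -0.85. Its call was lost without scramble replicate 2, at -0.56, and the shKDM3B call without shKDM3B replicate 2, at -0.57, or without shKDM3B+ATRA replicate 2, at -0.58, each by a fold change under the limit. The responses differed by 0.016 (SE 0.25, adjusted p = 1.00).

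ST3GAL6 (ENSG00000064225, chromosome 3, 98732236 to 98821201, plus strand), which encodes an enzyme of the same kind, was at 41.9 and 36.9 CPM in scramble and at 44.5 and 33.2 in shKDM3B cells. After ATRA it was at 16.4 and 23.1 CPM in scramble and at 23.3 in both shKDM3B libraries. It too was lower in all treated than in all untreated libraries. The log2 change was -0.96 in scramble (SE 0.26, adjusted p = 0.0509) and -0.68 in shKDM3B cells (SE 0.18, adjusted p = 0.0115), both called. The calls were lost at -0.90 without scramble replicate 1 and at -0.51 without shKDM3B replicate 1, respectively. In scramble cells it was -1.26 when replicate 2 and -0.74 when replicate 1 of scramble+ATRA was left out. Neither sialyltransferase gene was called between shKDM3B and control cells, with log2 differences from -0.023 to 0.24 and standard errors from 0.16 to 0.25. In the treated cells, leaving out scramble+ATRA replicate 1 or 2 gave 0.0087 and 0.18 for ST3GAL4 and 0.026 and 0.50 for ST3GAL6. ST3GAL4 counts per ST3GAL6 count were between 1.78 and 2.88 in the 8 libraries.

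GCNT1 (ENSG00000187210, chromosome 9, 76419850 to 76651203, plus strand) was at 14.5 and 16.5 CPM in scramble, 22.9 and 19.9 in shKDM3B, 18.1 and 24.3 in scramble+ATRA and 27.8 and 30.2 in shKDM3B+ATRA. The lowest and the highest groups did not overlap any other, and those between overlapped. In each of the 4 comparisons of 2 conditions its log2 difference was between 0.46 and 0.50, higher with the knockdown or with ATRA, and none was called. The unadjusted p was 0.0477 for the knockdown without ATRA (adjusted p = 0.486) and the adjusted p was 0.032 for ATRA in shKDM3B cells. Between the treated groups it was called at 0.68 without scramble+ATRA replicate 2 and was 0.26 without replicate 1. For ATRA in scramble cells it was called at 0.69 without scramble+ATRA replicate 1 and was 0.23 without replicate 2.

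B4GALT1 (ENSG00000086062, chromosome 9, 33104082 to 33167356, minus strand) was at 66.3 and 77.2 CPM in scramble and at 56.1 and 70.4 in shKDM3B cells, which overlapped. With ATRA it was at 136 and 141 CPM in scramble and at 85.3 and 124 in shKDM3B cells. Each treated group lay above both untreated groups. The log2 change with ATRA was 0.99 in scramble (SE 0.20, adjusted p = 0.0203) and stayed called with any one library left out, at 1.01 and 0.93 without scramble+ATRA replicate 1 and 2. In shKDM3B cells it was 0.78 (SE 0.19, adjusted p = 0.00823), and the call was lost without shKDM3B replicate 1, at 0.57, or without shKDM3B+ATRA replicate 2, at 0.48. The difference of -0.40 between shKDM3B+ATRA and scramble+ATRA (SE 0.23, adjusted p = 0.608; -0.42 and -0.38 without scramble+ATRA replicate 1 and 2, -0.15 and -0.69 without shKDM3B+ATRA replicate 1 and 2) and that of -0.22 between the responses (SE 0.30, adjusted p = 1.00) were not called.

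**Figure D3:**
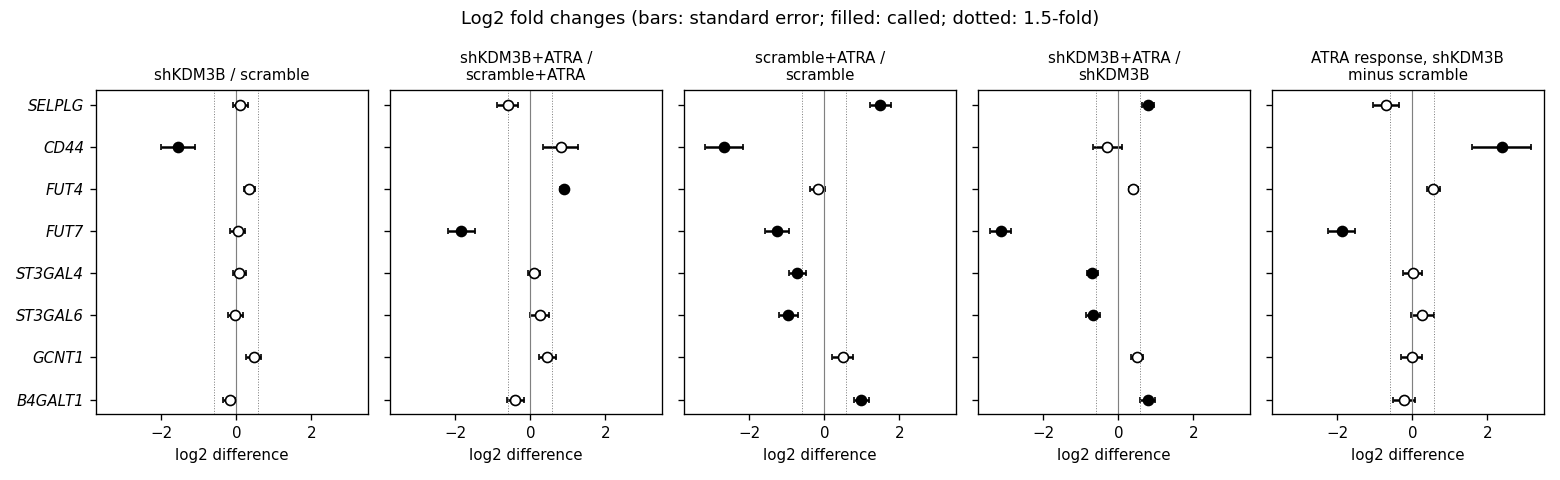
Log2 differences of the 8 genes in the 5 comparisons, with 1 standard error on each side. Filled points were called, open points were not, and dotted lines mark a 1.5-fold change. Called points are CD44 at -1.55 for the knockdown without ATRA, FUT4 at 0.90 and FUT7 at -1.84 for the knockdown with ATRA, 6 and 5 genes for ATRA, and CD44 at 2.38 and FUT7 at -1.88 for the difference between the responses.

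Without ATRA, 1 of the 8 genes was called lower in shKDM3B cells, CD44, and 0 higher. Of the 13855 genes tested, 3.53% were called lower and 3.48% higher. With ATRA, 1 gene was called higher, FUT4, against 2.42% of 14281 genes, and 1 lower, FUT7, against 4.37%. SELPLG was called as well in a fit of all 8 libraries together, which gave 3 of the 8. Over all genes that fit called 505 of 13528 higher and 929 lower. With 1 library left out the count among the 8 moved, as did that over all genes. ATRA in scramble cells gave 2 higher (SELPLG and B4GALT1), where 15.0% of 12429 genes were higher, and 4 lower (CD44, FUT7, ST3GAL4 and ST3GAL6), where 10.8% were lower. In shKDM3B cells it gave 2 higher (SELPLG and B4GALT1), where 24.0% of 12756 genes were higher, and 3 lower (FUT7, ST3GAL4 and ST3GAL6), where 18.3% were lower. In the test of the difference between the responses, 1 gene had a higher value in shKDM3B, CD44, and 1 a lower one, FUT7, against 1.27% and 2.72% of 13528 genes. With library size alone as the scaling, 234 of these genes were higher and 279 lower, in place of 172 and 368, and FUT4 was called as well.

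With adjusted p under 0.05 in place of the unadjusted p, 0 of the 8 genes were called for the knockdown without ATRA, where 0.0217% of all genes were, 0 for the knockdown with ATRA and 0 for the difference between the responses, where 0% of all genes were called with edgeR. At an unadjusted p under 0.05 there were 1383 genes for the knockdown with ATRA and 607 for the difference between the responses, and DESeq2 gave 464 and 25 genes at an adjusted p under 0.05. For ATRA in scramble cells 4 of the 8 were called in this way, where 12.9% of all genes were, and in shKDM3B cells 5, where 40.2% were. The scramble libraries serve both the ATRA and the knockdown comparison, so that the comparisons are not independent of each other. The median log2 difference of the 8 genes was 0.054 without ATRA and 0.17 with ATRA for the knockdown, against 0.00022 and 0.034 over all genes. For ATRA it was -0.45 in scramble and 0.052 in shKDM3B cells, against 0.016 and 0.045.

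The rest of the pathway was followed with a list of 88 genes of scaffolds, selectins, glycosyltransferases, sulfation, nucleotide sugar supply, trimming and cytoskeletal linkers. For the knockdown without ATRA, 6 of 65 tested genes were called higher, or 9.23% beside 3.48% of all genes, and 0 lower beside 3.53%, with a median log2 difference of 0.13 against 0.00022 over all genes. The 3 largest rises were those of CHST4, which encodes a carbohydrate sulfotransferase, GALNT3, which encodes an enzyme that starts O-glycans, and TPST2, which encodes a tyrosine sulfotransferase. CHST4 was at 2.71 and 3.52 CPM in scramble and at 8.89 and 11.0 in shKDM3B cells, a log2 fold change of 1.67 (SE 0.28, adjusted p = 0.105). GALNT3 was at 11.9 and 12.0 CPM in scramble and at 23.7 and 18.3 in shKDM3B cells, a log2 fold change of 0.81 (SE 0.21, adjusted p = 0.209). TPST2 had a log2 fold change of 0.64 (SE 0.28, adjusted p = 0.485). How many listed genes were called depended on the library left out, and the same held over all genes.

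With ATRA, 8 of 67 listed genes were called higher in shKDM3B cells, or 11.9% beside 2.42% of all genes, and 3 lower, or 4.48% beside 4.37%, with a median of 0.071 against 0.034 over all genes. CHST4 was at 0.429 and 0.461 CPM in scramble+ATRA, from 7 and 5 counts, and at 2.95 and 2.01 in shKDM3B+ATRA, a log2 fold change of 2.46 (SE 0.50, adjusted p = 0.502). GALNT3 was at 14.6 and 16.0 CPM against 30.6 and 29.7, a log2 fold change of 0.98 (SE 0.19, adjusted p = 0.502). B3GNT5, which encodes an enzyme of lacto-series glycolipids, had 0.79 (SE 0.23, adjusted p = 0.502). Of 13 tested genes listed as core and branch enzymes, 5 were called higher, B3GNT5, C1GALT1, GALNT3, GALNT7 and GCNT2, and 0 lower. That role was chosen for mention after its values were seen. In the same comparison 0 genes were called among the galactosyltransferases, fucosyltransferases, sialyltransferases, other scaffolds, cytoskeletal linkers and nucleotide sugar genes. Without scramble+ATRA replicate 1 and 2, CHST4 was at 2.40 and 2.50, GALNT3 at 0.93 and 1.04 and B3GNT5 at 0.62 and 1.00 on the log2 scale. SELP and FUCA1 were among the 3 called lower. The number of list calls moved strongly with the library left out, as did that over all genes. No call of a higher gene was kept without either of the shKDM3B+ATRA libraries.

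SELP, the gene of P-selectin, which binds PSGL-1, had 0 and 1 counts in scramble and 238 and 213 in scramble+ATRA, at least 124-fold higher when 3 counts are set for each untreated library. It had 5 and 18 counts in shKDM3B+ATRA, and the log2 difference between the treated groups was -3.85 (SE 0.74, adjusted p = 0.502), and -4.03 and -3.62 without scramble+ATRA replicate 1 and 2. It was called at -3.23 and -4.99 without shKDM3B+ATRA replicate 1 and 2. FUCA1, a lysosomal fucosidase gene, had 28 and 26 counts in scramble+ATRA and 3 and 6 in shKDM3B+ATRA, a log2 difference of -2.12 (SE 0.60, adjusted p = 0.502), which was -2.33 and -1.87 without scramble+ATRA replicate 1 and 2. FUCA1 was not called without shKDM3B+ATRA replicate 1 or 2, at -1.74 and -2.65.

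For ATRA, 8 of 67 listed genes were called higher and 6 lower in scramble cells, or 11.9% and 8.96% beside 15.0% and 10.8% of all genes. In shKDM3B cells 14 of 65 were higher and 11 lower, or 21.5% and 16.9% beside 24.0% and 18.3%. Each share of the list thus lay under that of all genes. The medians were -0.063 and -0.026, against 0.016 and 0.045 over all genes. Beside SELP, GALNT12 was among the largest rises, with log2 changes of 2.46 in scramble (SE 0.40, adjusted p = 0.00839) and 1.80 in shKDM3B cells (SE 0.30, adjusted p = 0.000988), and 20.9% of its exon bases lie opposite another gene. The largest falls shared by both were those of CHST4, at -2.76 and -1.95, and of B4GALT2, at -1.40 and -2.09. FUT1, with 14 and 15 counts in scramble and 1 and 0 in scramble+ATRA, was at least 2.89-fold lower when 3 counts are set for each treated library. In scramble cells the number of list calls rose or fell with the library left out, as did that over all genes.

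FUT2 and ST3GAL1 followed the share of pairs outside genes. FUT2 had 0 counts in the 5 libraries with 8.49% to 9.62% outside genes, and 13, 15 and 12 counts in the 3 libraries with 50.0% to 51.4%. Against 3 counts for each untreated library it was at least 11.3-fold higher in shKDM3B+ATRA than in shKDM3B. ST3GAL1, a sialyltransferase gene of O-glycan cores, was at 27.5 CPM in scramble+ATRA replicate 1 and at 11.9 in replicate 2, beside 12.5 and 15.3 in shKDM3B+ATRA and 32.8 to 40.2 in the untreated libraries. Its fall of 1.37 on the log2 scale with ATRA in shKDM3B cells (SE 0.18, adjusted p = 0.000243) therefore sets libraries of unlike shares side by side. Among the 8 genes, 7 had their highest or lowest treated level in scramble+ATRA replicate 1, the treated library with the low share, all but B4GALT1. So did 69.6% of the 9789 genes with a mean of at least 5 CPM. SELPLG was at 123 CPM there and at 61.7 to 77.7 in the other 3, CD44 at 2.21 against 4.33 to 5.93, ST3GAL6 at 16.4 against 23.1 to 23.3 and GCNT1 at 18.1 against 24.3 to 30.2 CPM. FUT7 was at 5.70 CPM against 1.31 to 4.70, FUT4 at 89.9 against 91.5 to 173 and ST3GAL4 at 46.5 against 48.6 to 57.1 CPM. The part of the share in these levels was not tested.

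In the difference between the ATRA responses, 0 of 69 listed genes were called, with a median of 0.014 against -0.024 over all genes. The count was 1 with DESeq2 and 1 without the low-count filter. Over all genes, 177 of 13528 were called higher and 324 lower with DESeq2, and 366 of 21090 and 575 without the filter. With 1 library left out, the list count was highest without scramble+ATRA replicate 2, as was that over all genes.

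**Figure D4:**
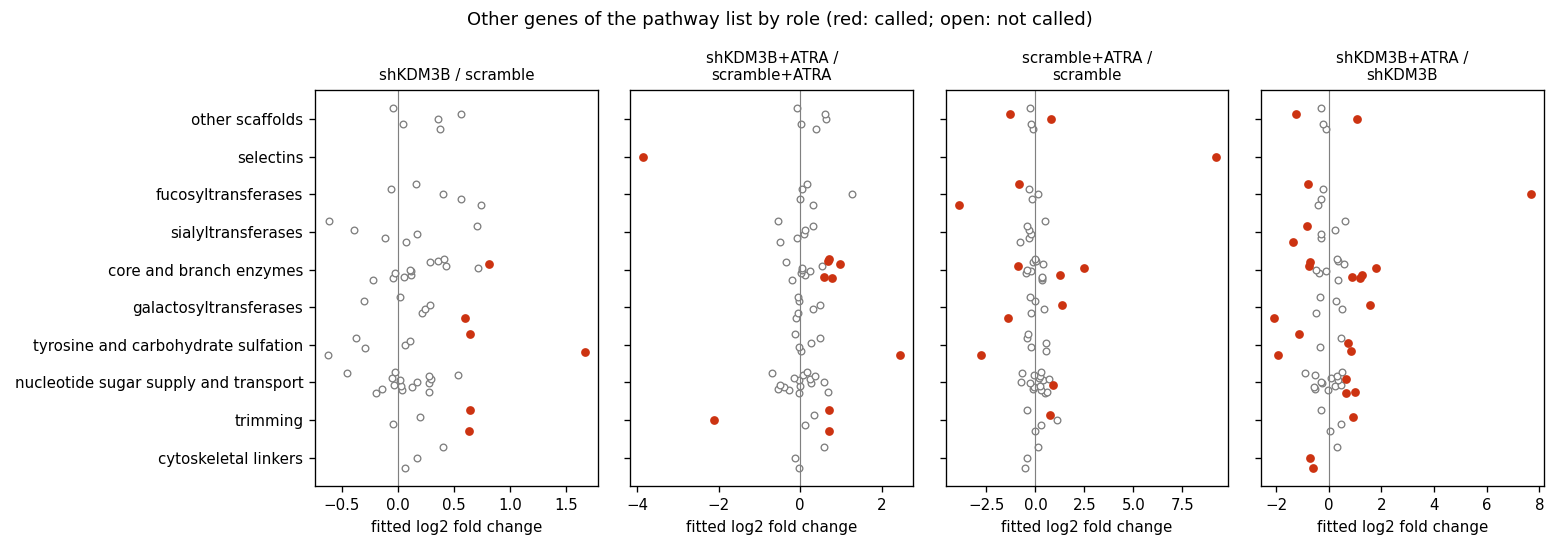
Fitted log2 fold changes of tested genes of the pathway list by role (of the selectins, SELP alone), 1 point per gene, in 4 comparisons with an axis range of their own. Red points were called and open points were not, and heights within a row are spread for sight only. SELP lies near 9 for ATRA in scramble cells, fitted from 0 and 1 counts in the untreated libraries, and at -3.85 between the treated groups.

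The genes whose pattern was most like that of each member were sought among 9788 genes with a mean of at least 5 CPM, by Pearson's r of log2 CPM over the 8 libraries, which share conditions, depth and annotation. FUT7 was most like EMC8 (r = 0.992), HEBP2 (0.992) and FAM129B (0.989). FUT4 was most like UHRF1BP1 (0.982), GCNT2 (0.973), the gene of the I-branching enzyme, and BTBD3 (0.970). SELPLG was most like SFXN5 (0.991), TRAFD1 (0.989) and PTPRJ (0.989), and B4GALT1 most like RELL2 (0.988) and SELENOW (0.984). ST3GAL4 was most like CMSS1, INTS9 and FARS2 (0.983 to 0.984), ST3GAL6 most like PCCA, PITPNB and RPP40 (0.987 to 0.992), and GCNT1 most like STAU2, DCAF6 and IDH1 (0.980 to 0.983). CD44 had the least close partners, TMEM109 (0.897), MARS (0.893) and ZNF839 (0.890).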

How the data were processed

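RNA from NB4 cells was sequenced with a TruSeq RNA kit as paired reads. According to the methods, the authors used Trim Galore for trimming, HISAT2 for alignment to hg38 and HTSeq for counting per gene, and the submitters' notes also name Picard, SAMtools and DESeq2. The deposited files hold 1 column of raw counts per library, with no normalization, and HTSeq summary lines, which were kept out of library sizes and tests. The strand setting is not given in the sources used here. Without it, reads of a gene and of an antisense partner cannot be told apart. Intervals were not computed, and the bounds against 3 counts cover counting error only, since molecular identifiers were not used.

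Pairs of conditions were fitted separately with edgeR 4.0.16 in R 4.3.3 (filterByExpr, TMM, quasi-likelihood F test) over all genes, with names listed for both groups. The difference between ATRA responses was an interaction term over all 8 libraries. The standard error was the size of the log2 fold change divided by the square root of F. The members, lists and tests were chosen with earlier results of these data known. All members were named. From the pathway list, the 3 largest called rises and falls per comparison were named, and the 3 closest genes per member. Some items are not reported here. Other genes, in the role counts, were chosen after their values were seen. Exon overlaps and lengths came from GENCODE v44, whereas the study names a RefSeq annotation for its counts. Alternatives were RLE scaling, library size alone, no filter, DESeq2 1.42.0, adjusted p, the replicate block, all 8 libraries in one fit, each library left out in turn, and, chosen after seeing the data, the gene names shared by all libraries. Tables and plots were made with Python 3.11.15, pandas 2.3.3 and matplotlib 3.10.9.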

Additional observations from a re-analysis of the deposited data

Results flagged for a closer look

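The responses of 2 genes to ATRA differed between shKDM3B and scramble cells in the interaction test at an unadjusted p under 0.05 and a difference of at least 1.5-fold, which is why they are listed here. For FUT7 the difference was -1.88 on the log2 scale, since FUT7 fell by 1.27 in scramble and by 3.13 in shKDM3B cells (adjusted p = 0.965, edgeR). For CD44 it was 2.38, since CD44 fell by 2.68 in scramble cells and differed by -0.29 in shKDM3B cells (adjusted p = 1.00, edgeR). Neither passed the adjustment over 13528 genes. With 1 library left out, the difference ran from -2.02 to -1.73 for FUT7 and from 1.75 to 3.24 for CD44. The CD44 difference was not called in every such fit, and its change in shKDM3B cells ran from -0.83 to 0.53. The share of pairs outside genes was higher in 3 of the 4 treated libraries than in all others, and the listed gene names differ between the treated and untreated libraries. Their part in these differences was not tested.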

How the results depend on the processing

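Of the alternative values of single genes, 427 kept their direction and their side of the thresholds, 20 lost the call, 11 gained it and 22 changed sign. Under adjusted p, 0 of the 8 genes were called for the knockdown without ATRA, 0 for that with ATRA and 0 for the difference between responses, in place of 1, 2 and 2. With 1 library left out, the number called was 1 to 1 for the knockdown without ATRA, 1 to 5 with ATRA, 4 to 7 for ATRA in scramble, 3 to 5 in shKDM3B cells and 1 to 3 for the difference between responses. A group left with 1 library was assumed to vary like the other groups. Between the treated groups, with 1 scramble+ATRA library left, the spread thus came from the shKDM3B+ATRA pair. Its chi-square per degree of freedom was 6.11, beside 81.5 in scramble+ATRA. Calls in such fits do not measure the spread of scramble+ATRA. All sign changes were in log2 differences that the main test did not call. With 1 library left out, the range was -0.047 to 0.13 for FUT7, -0.057 to 0.30 for SELPLG, -0.079 to 0.25 for ST3GAL4 and -0.25 to 0.16 for ST3GAL6 for the knockdown without ATRA. It was -0.024 to 0.21 for ST3GAL4 in the treated cells and -0.83 to 0.53 for CD44 with ATRA in shKDM3B cells. For the difference between responses it was -0.52 to 0.050 for B4GALT1, -0.20 to 0.21 for GCNT1 and -0.16 to 0.20 for ST3GAL4, and GCNT1 gave 0.017 with DESeq2, 0.013 with RLE scaling and 0.061 with library size alone. The cause was not tested.

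When the replicate number was a block, the members called stayed at 1, 2, 6, 5 and 2 in the 5 comparisons, and no member changed its call. The adjusted p of CD44 for the knockdown without ATRA was 8.8e-06 with the block and 1.3e-06 without the low-count filter, in place of 0.265. With ATRA, those of FUT4 and FUT7 were 0.781 with the block, in place of 0.502. Calls over all genes went from 482 up and 489 down to 614 and 628 for the knockdown without ATRA, and from 345 and 624 to 179 and 346 with ATRA, where the pathway list went from 11 to 7. Same-numbered libraries correlated at 0.386, 0.0216, -0.066 and 0.172 in the 4 comparisons of 2 conditions, and the labels state no shared culture or day. Under adjusted p, 0 genes of the pathway list were called for the knockdown with or without ATRA, and 9 in place of 14 for ATRA in scramble cells. Over all genes, adjusted p left 0 up and 3 down for the knockdown without ATRA, and 975 and 629 in place of 1866 and 1347 for ATRA in scramble cells. Leaving the low-count filter out gave 366 and 575 in place of 172 and 368 for the difference between responses. With 1 library left out, all-gene calls ran from 40 up and 94 down to 3409 and 1951 for the knockdown with ATRA, the first without shKDM3B+ATRA replicate 1 and the last without scramble+ATRA replicate 2. They reached 961 and 689 without scramble replicate 2 for the knockdown without ATRA, and for ATRA in scramble cells ran from 918 and 544 without scramble replicate 2 to 2866 and 2276 without scramble+ATRA replicate 1. For the difference between responses they ran from 128 and 157 without shKDM3B+ATRA replicate 1 to 1168 and 1264 without scramble+ATRA replicate 2. FUT7 rests on 13 and 15 counts in shKDM3B+ATRA, the fewest of any member in any group.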

Other observations

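SPN, the gene of CD43 (leukosialin), a mucin-type scaffold of the pathway list that was chosen for mention after its values were seen, lay between 377 and 613 CPM in the 8 libraries. It was called in none of the comparisons.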
